A study of Homo sapiens with 6 samples.

Results

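The FAM83 family was followed in RNA-seq of SiHa cells with and without P4HA3 overexpression. Its 8 members, FAM83A to FAM83H, were found by symbol among the 60664 Ensembl genes of the deposited count table, and each matched 1 row. FAM83 proteins share a conserved domain at the amino-terminal end through which they hold casein kinase 1 (CK1) isoforms, and they bring these kinases to different places in the cell. FAM83A and FAM83B are known as growth-promoting proteins of epithelial cancers that act in EGFR and PI3K signalling. FAM83D brings CK1 alpha to the mitotic spindle, FAM83G acts in BMP and Wnt signalling, and FAM83H organises keratin filaments.

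SiHa is a long-established cell line from a squamous carcinoma of the human cervix, and SiHa PR are the parental cells of the study's lymph node metastatic derivatives. Control cells, named only SiHa PR in the labels, were compared with SiHa PR cells overexpressing P4HA3, a catalytic subunit of collagen prolyl 4-hydroxylase, in 3 libraries per group. The labels name no vector for the controls. All 6 libraries came from this 1 line, and the sources used here do not say whether libraries of a group came from separate cultures, so p-values measure the spread between these samples, which may be technical.

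P4HA3 had 86, 62 and 93 counts in control replicates 1, 2 and 3, and 45042, 44775 and 49097 in overexpression replicates 1, 2 and 3, as the labels require. Total counts ran from 21773488 to 24939948, so that 1 CPM, the TMM-normalized unit of expression that scales counts to library size, rested on 21.3 to 25.4 counts. Markers of squamous or simple epithelium summed to 2564 to 2895 CPM in control libraries and 2322 to 2620 CPM with overexpression, most of it from KRT8 and KRT18. Of these 7 epithelial markers 4 reached a mean of 1 CPM. KRT19, a keratin of simple epithelium, did not, with means of 0.841 CPM in controls and 0.973 CPM with overexpression. The squamous markers KRT5 and TP63 were near the limit of detection, with 3 to 4 and 3 to 13 counts per library. CDH1, the epithelial cadherin, was lower with overexpression at 9.66 ± 0.821 against 16.5 ± 0.211 CPM (SD, n = 3; adjusted p = 0.00114, edgeR).

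All 6 fibroblast markers passed 1 CPM and summed to 170 to 180 CPM in control libraries and 135 to 171 CPM with overexpression. Endothelial markers summed to 2.57 to 3.47 CPM in controls and 1.33 to 1.58 CPM with overexpression, 1 of 3 reaching 1 CPM, and leukocyte markers summed to at most 0.0821 CPM with CD3E at 0 in every library. Of the 7 smooth muscle markers 2 reached 1 CPM, and their sum was 95.3 to 105 CPM in controls and 94.3 to 112 CPM with overexpression, most of it from SMTN. The smooth muscle gene ACTG2 set libraries apart within both groups, with 30 counts in control replicate 3, 40 and 44 in overexpression replicates 1 and 3, and 0 to 1 in the other 3 libraries. The part of these differences in the FAM83 values was not tested, and in bulk RNA fewer cells of a type cannot be told apart from less RNA per cell. The samples are given as a single cell line, and whether these marker transcripts came from SiHa cells or from others was not tested.

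FAM83A and FAM83D changed in opposite directions with P4HA3 overexpression. FAM83A was 1.81-fold lower and FAM83D was 1.28-fold higher, and their groups did not overlap. FAM83B, FAM83G and FAM83H passed the filter on low counts and were not called, FAM83E and FAM83F were below the filter, and FAM83C had no count. Thus 2 of the 5 members tested were called at an adjusted p under 0.05, 1 in each direction, beside 20.8% of all 15130 genes tested (9.36% higher and 11.4% lower). The same 2 members had an unadjusted p under 0.05, as 38.7% of all genes did. Without the 3 libraries that held ACTG2 counts, which leaves 1 overexpression library, FAM83A stood at -1.03 and FAM83D at 0.39 on the log2 scale and both kept their call, while FAM83B (0.59) and FAM83H (-0.20) were called too, beside 43.3% of all genes.

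FAM83D had the highest level of the family per exon length in both groups, at 90.1 ± 0.937 CPM per kilobase of exon in control cells and 115 ± 1.71 with overexpression (SD, n = 3). It was followed by FAM83H at 52.7 ± 3.14 and 49.0 ± 1.56, FAM83G at 9.09 ± 0.198 and 8.66 ± 0.410, and FAM83A at 5.67 ± 0.533 and 3.13 ± 0.196. FAM83B stood at 0.578 ± 0.144 and 0.654 ± 0.174, more than the near-absent FAM83E at 0.0667 ± 0.0216 and 0.0415 ± 0.0201. The order of the 8 members was the same in both groups, and the library values of neighbours in it did not overlap in either group. The level of FAM83D in control cells exceeded that of 97.0% of tested genes, against 93.9% for FAM83H, 69.1% for FAM83G, 59.4% for FAM83A and 18.3% for FAM83B. FAM83D held 57.0% of the family's summed level in control cells and 65.1% with overexpression, and the share of FAM83A went from 3.58% to 1.78%. With the longest transcript as the length, the FAM83G level was 13.6 and 12.9 and the FAM83A level 6.64 and 3.67 CPM per kilobase, and the order held.

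**Figure D1:**
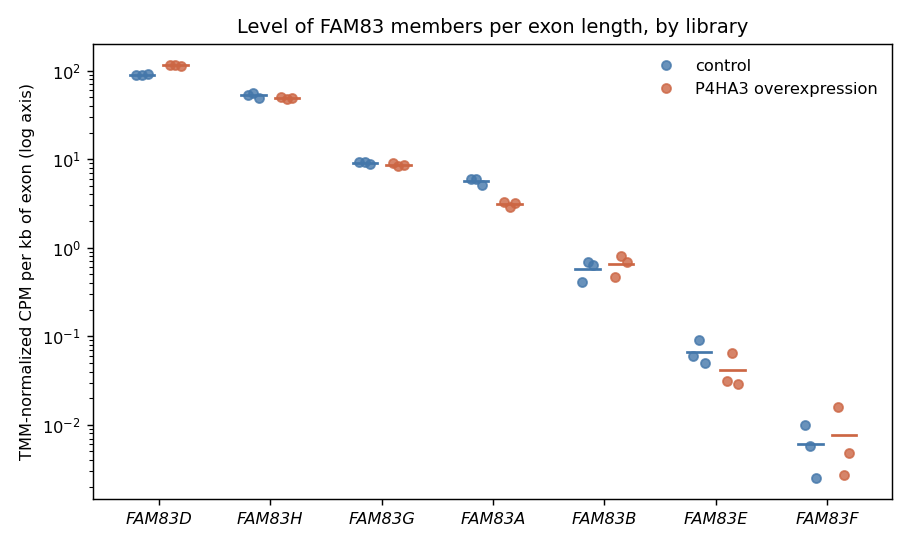
TMM-normalized CPM per kilobase of annotated exon (log axis) of 7 FAM83 members in each of the 3 control and 3 P4HA3 overexpression libraries, with a line at each group's mean. FAM83C, at 0 counts, is not drawn; FAM83D and FAM83H lead in both groups and the FAM83A points of the groups do not overlap.

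RefSeq promoters, 250 bases before to 50 bases after a gene's start on GRCh38.p14, were matched for 4 of the 8 members, FAM83B, FAM83C, FAM83E and FAM83G. The sequences of an expressed and a silent member are shown because they differ in their number of CG dinucleotides, the sites of DNA methylation, which are in capitals and read the same on either strand. FAM83G lies at chr17:19004715-19005014 and FAM83C at chr20:35292376-35292675, both on the minus strand and written 5′ to 3′ in the direction of transcription.
FAM83G: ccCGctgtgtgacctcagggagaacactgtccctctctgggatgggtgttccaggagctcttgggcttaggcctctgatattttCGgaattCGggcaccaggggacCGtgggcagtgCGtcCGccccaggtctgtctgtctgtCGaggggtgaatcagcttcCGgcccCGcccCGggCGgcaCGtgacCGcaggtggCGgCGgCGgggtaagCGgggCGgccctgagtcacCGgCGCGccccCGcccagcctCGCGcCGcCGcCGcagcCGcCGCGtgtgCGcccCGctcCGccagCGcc
FAM83C: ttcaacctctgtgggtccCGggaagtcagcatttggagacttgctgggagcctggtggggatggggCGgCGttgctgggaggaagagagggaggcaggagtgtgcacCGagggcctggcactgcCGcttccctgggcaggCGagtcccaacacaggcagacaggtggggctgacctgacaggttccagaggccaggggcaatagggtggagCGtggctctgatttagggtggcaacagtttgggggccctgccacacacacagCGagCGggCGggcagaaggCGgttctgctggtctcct

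The FAM83G promoter, with 34 CG and a GC content of 72.3%, was among the CG-rich ones, since 15.6% of the 35116 RefSeq promoters of this length held at least as many CG. The FAM83B promoter, at chr6:54846521-54846820 on the plus strand, held 30 CG, which 22.4% of promoters reached. FAM83C held 11 CG and FAM83E 9, at chr19:48615027-48615326 on the minus strand, below the median of 14, and 54.7% and 58.4% of promoters held at least as many. The 2 members with the CG-rich windows had counts in every library, 63 to 114 for FAM83B and 1458 to 1744 for FAM83G, and the other 2 had between 0 and 8. With 4 genes this is a description, which leaves out the expressed members FAM83A, FAM83D and FAM83H. Neither methylation nor the start site in use was measured.

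FAM83A (ENSG00000147689) spans bases 123178960 to 123210079 of chromosome 8 (GRCh38, plus strand), with 4 exons in its canonical transcript. It had 930, 794 and 782 counts in control replicates 1, 2 and 3, and 479, 413 and 519 in overexpression replicates 1, 2 and 3. Its normalized level was 38.2, 37.3 and 31.96 CPM in control cells and 20.6, 18.4 and 20.5 CPM with overexpression. The lowest control library thus stood above the highest overexpression library, a fall without overlap that 20.4% of tested genes also showed (40.1% separated in either direction). The mean fell from 35.8 ± 3.37 to 19.8 ± 1.24 CPM (SD, n = 3), a difference of -0.85 on the log2 scale with a 95% interval from -1.05 to -0.65. After Benjamini-Hochberg adjustment over all genes tested, edgeR's quasi-likelihood test gave an adjusted p = 0.000664. By size, its fall ranked 168 among the 1731 genes called lower. It stayed lower after removal from every library of its trend on GC content and transcript length, at -0.72 on the log2 scale (adjusted p = 8.9e-05, edgeR).

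Nearby genes of FAM83A were not called with it. Of the 8 tested protein-coding genes within 500 kb, 0 were called by edgeR, DESeq2 or limma-voom, beside the 20.8% of all tested genes that edgeR called. At an unadjusted p under 0.05 (edgeR), 2 were higher and 0 lower, beside 38.7% of all genes in either direction. With so few genes these counts are only a description. The 8 neighbours had log2 fold changes from -0.16 for ZHX2 to 0.41 for ATAD2. Exons of the antisense genes FAM83A-AS1 and FAM83A-AS2 overlap 125 and 389 bases of FAM83A exons, and each of them had 0 or 1 count per library. The small RNA gene U3 overlaps another 184 bases and had 0 counts. FAM83H lies on the same chromosome at a distance of 20.5 Mb.

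FAM83B (ENSG00000168143), which like FAM83A acts in EGFR signalling, lies on chromosome 6 from 54846771 to 54945099 on the plus strand. It was expressed at a low level, with 63, 91 and 97 counts in control libraries and 68, 114 and 108 with overexpression. Its level was 2.59, 4.27 and 3.96 CPM against 2.92, 5.07 and 4.26 CPM, so the groups overlapped and both lowest values came from replicate 1. The log2 fold change was 0.18 with a 95% interval from -0.32 to 0.68 (adjusted p = 0.572, edgeR). True differences within that interval remain compatible with these libraries. The sign itself was not stable, since the value was -0.012 without control replicate 1 and -0.065 with the GC and length trend removed. Exons of a long non-coding gene (ENSG00000261116) share 1933 bases and the strand with FAM83B, and that gene had 0 counts.

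FAM83D (ENSG00000101447), the spindle member, spans 38926312 to 38953106 on chromosome 20 (plus strand), with 4 exons, all coding. Its counts were 5424, 4706 and 5518 in control libraries and 6599, 6502 and 7126 with overexpression. In normalized terms this was 223, 221 and 226 CPM against 283, 289 and 281 CPM. The 3 libraries of each group lay close together and the groups did not overlap, as 19.7% of tested genes were higher without overlap. The mean rose from 223 ± 2.32 to 285 ± 4.23 CPM (SD, n = 3), by 27.5%, or 0.35 on the log2 scale (standard error 0.05, 95% interval 0.24 to 0.46, adjusted p = 0.00234, edgeR). Its rise was of middling size among changed genes, ranking 610 of the 1416 called higher. With the GC and length trend removed the rise was 0.40 (adjusted p = 0.000101, edgeR). Of the 3 tested protein-coding genes within 500 kb, 1 was called higher by edgeR, beside 9.36% of all genes tested. This was RALGAPB, which encodes a regulator of Ral GTPases, at 0.21. DESeq2 called it too but limma-voom did not, and the others reached down to -0.12 for ACTR5. FAM83C lies 3.63 Mb away on the same chromosome and had no counts.

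FAM83G (ENSG00000188522), also known as PAWS1, spans 18968789 to 19004764 on chromosome 17 (minus strand). It had 1744, 1532 and 1691 counts in control libraries and 1655, 1458 and 1691 with overexpression, or 71.6, 71.9 and 69.1 CPM against 71.1, 64.8 and 66.7 CPM. The groups overlapped, since overexpression replicate 1 stood among the controls. The log2 fold change was -0.070 with a 95% interval from -0.20 to 0.062 (adjusted p = 0.403, edgeR), and 0.12 with the GC and length trend removed (adjusted p = 0.0899). SLC5A10, on the opposite strand, shares 529 exon bases with FAM83G, of which 59 are coding in FAM83G, and had 0 to 3 counts per library.

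FAM83H (ENSG00000180921), the keratin-associated member in which inherited mutations cause an enamel defect, spans 143723933 to 143738234 on chromosome 8 (minus strand). It had 8110, 7330 and 7489 counts in control libraries and 7289, 6613 and 7803 with overexpression. The normalized values of 333, 344 and 306 CPM against 313, 294 and 308 CPM overlapped between the groups. The log2 fold change was -0.10 with a 95% interval from -0.24 to 0.03 (adjusted p = 0.228, edgeR), and it turned to 0.14 and was called higher with the GC and length trend removed (adjusted p = 0.0306, edgeR). FAM83H has the highest GC content of the tested members and lies in a gene-dense region. Of the 31 tested protein-coding genes within 500 kb of it 15 were called lower and 0 higher by edgeR, beside 11.4% lower and 9.36% higher of all genes tested. DESeq2 called 14 and 0, and at an unadjusted p under 0.05 edgeR gave 17 and 0. The neighbours had a median log2 fold change of -0.20 and a range from -0.74 for RHPN1 to 0.15 for ZNF623. Tested genes within 1 point of the GC content of FAM83H had a median of -0.25, and the part of GC content in the neighbours' values was not tested.

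**Figure D2:**
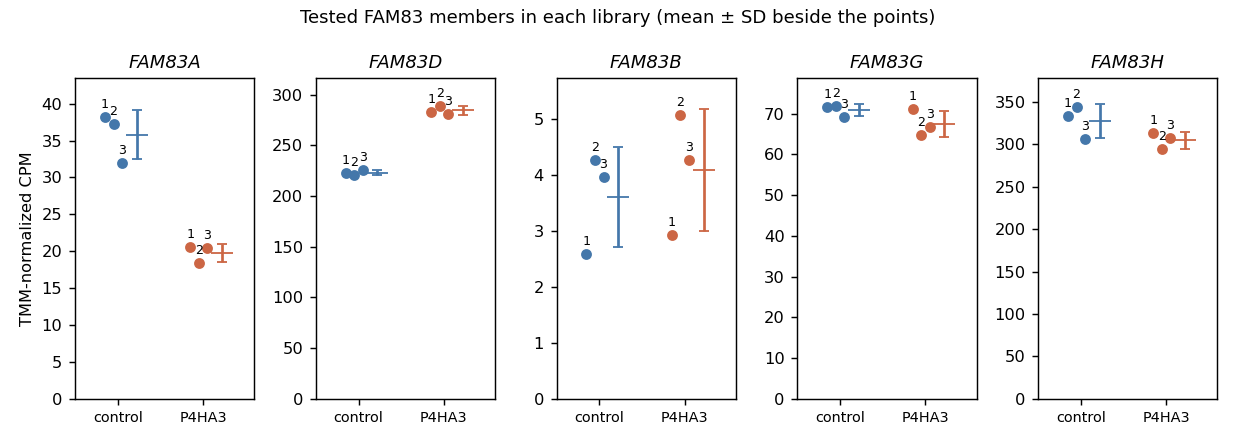
TMM-normalized CPM of the 5 tested FAM83 members in control and P4HA3 overexpression libraries, each point 1 library numbered by replicate, with the mean ± SD (n = 3) beside the points and every axis from 0. FAM83A and FAM83D separate the groups in opposite directions, while the points of FAM83B, FAM83G and FAM83H overlap.

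The remaining members were silent or nearly so. FAM83C (ENSG00000125998, chromosome 20, 35285731 to 35292425, minus strand) had 0 counts in all 6 libraries, a result that allows up to 3 counts per library. FAM83E (ENSG00000105523, chromosome 19, 48599961 to 48615076, minus strand) had 6, 8 and 5 counts in control libraries and 3, 6 and 3 with overexpression. FAM83F (ENSG00000133477, chromosome 22, 39994954 to 40043534, plus strand), a membrane-associated member that binds CK1 alpha, had 4, 2 and 1 counts against 6, 1 and 2. The groups overlapped for FAM83E and FAM83F, and no difference was detectable at such counts. The genes that overlap exons of FAM83C and FAM83F, FAM83C-AS1 and TNRC6B-DT, had 1 to 3 and 0 to 6 counts per library.

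Ratios within a library do not depend on how libraries are scaled, but they carry the trend on GC content described below. FAM83A, FAM83D and FAM83H differ in GC content (57.0%, 50.8% and 66.1%), and the ratios were not corrected for it. FAM83A counted 11.5%, 10.8% and 10.4% of FAM83H in control libraries and 6.57%, 6.25% and 6.65% with overexpression. FAM83D counted 66.9%, 64.2% and 73.7% of FAM83H in control libraries and 90.5%, 98.3% and 91.3% with overexpression. Neither ratio overlapped between the groups. How often ratios of other genes separate the groups was not tested. The mean ratio of FAM83A to FAM83D went from 16.1 ± 1.64% to 6.97 ± 0.531% (SD, n = 3), and the ratio of FAM83G to FAM83H was 21.7 ± 0.851% and 22.1 ± 0.524%. The exact two-sided permutation p was 0.1, the smallest that 3 against 3 libraries can give, for every ratio with FAM83A or FAM83D, and 0.4 for FAM83G to FAM83H, so no ratio could pass the threshold (adjusted over 6 ratios, 0.12 and 0.4).

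The members differ in base composition, and fold changes in these libraries followed it. Across the genes tested, Spearman's rho between log2 fold change and the GC content of the canonical transcript was -0.58, and within groups the deviation of a library from its group mean had a rho with GC content from -0.54 in control replicate 3 to 0.47 in overexpression replicate 1. FAM83A, with a GC content of 57.0%, had a log2 fold change of -0.85 where the 958 tested genes within 1 point of that GC content had a median of -0.13 and a lower quartile of -0.27. FAM83D, with 50.8%, stood at 0.35 where 992 such genes had a median of -0.022 and an upper quartile of 0.10. FAM83H, with 66.1%, stood at -0.10 where the median of 357 genes was -0.25, and FAM83G, with 61.6%, at -0.070 where the median of 781 genes was -0.20. FAM83B, with only 37.7%, stood at 0.18 where the median of 923 genes was 0.25. FAM83A and FAM83D thus lay outside the middle range of genes of like composition and FAM83B lay inside it (0.12 to 0.36), while FAM83G and FAM83H lay just above their upper quartiles of -0.083 and -0.12.

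**Figure D3:**
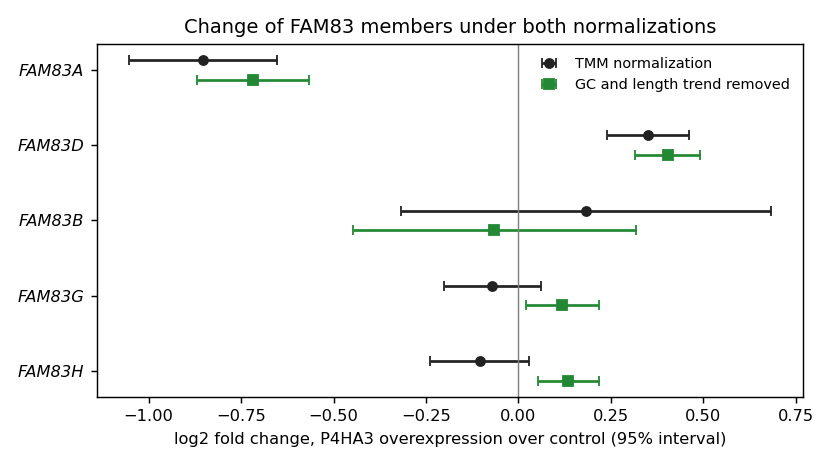
Log2 fold change, P4HA3 overexpression over control, of the 5 tested members with its 95% interval, with TMM normalization (circles) and after removal of the trend fitted in each library on GC content and transcript length (squares). FAM83A stays below 0 and FAM83D above 0 under both, while FAM83B, FAM83G and FAM83H change sign.

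For each tested member, the gene with the most similar profile was taken by Pearson's correlation of log2(CPM + 0.5) over the 6 libraries, among 13369 genes whose mean reached 1 CPM. These correlations carry the difference between the groups as well as the spread within them. FAM83A was followed most closely by TNNT1, which encodes a troponin of slow skeletal muscle (r = 0.999), and FAM83D by SERP1, which encodes a stress-associated protein of the endoplasmic reticulum (r = 0.999). CD2BP2 was closest to FAM83G (r = 0.998), HROB to FAM83H (r = 0.996) and USF3 to FAM83B (r = 0.986). A correlation over 0.95 was reached by 843 genes for FAM83A, 399 for FAM83D, 567 for FAM83G, 204 for FAM83H and 28 for FAM83B, so a high value is common in 6 libraries.

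Genes that FAM83 proteins act with were examined as 7 lists, which also take in relatives and pathway members of these genes. Counts in the lists are read beside the 20.8% of all tested genes that were called and the median log2 fold change over all of them of 0.006. The share of all genes called depended on the libraries, from 3.47% without control replicate 2 to 35.9% without overexpression replicate 1. Counts of called genes within the lists moved with it and are given with each list.

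The CK1 list takes in the whole kinase family. CSNK1A1, CSNK1D and CSNK1E were set as direct partners of FAM83 proteins, and the CSNK1G genes were listed as their relatives. Of the 6 tested 1 was higher and 2 were lower, with a median log2 fold change of 0.091. CSNK1A1, which encodes CK1 alpha, the isoform FAM83 proteins bind most widely, rose from 103, 104 and 116 CPM to 133, 145 and 140 CPM, or by 0.37 on the log2 scale (95% interval 0.23 to 0.51, adjusted p = 0.00575, edgeR), and by 0.18 with the GC and length trend removed (adjusted p = 0.0171). CSNK1D, for CK1 delta, had 223 ± 12.1 in controls and 212 ± 12.03 CPM with overexpression (SD, n = 3), and its log2 value of -0.073 turned to 0.077 with that trend removed, and was not called. CSNK1E, for CK1 epsilon, fell by 0.20 (adjusted p = 0.0393) and CSNK1G2 fell by 0.27 (adjusted p = 0.0225), and neither was called with the trend removed, at -0.026 and -0.006. The count of 3 was 1 without control replicate 1, control replicate 2 or overexpression replicate 3, 1 with the trend removed, and 5 without overexpression replicate 1.

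The list of FAM83D spindle partners holds further mitotic genes beside the direct partners HMMR and DYNLL1, neither of which was called. Genes of this list rose or were not called. Of the 8 tested 4 were higher and 0 lower by edgeR, as by DESeq2 and limma-voom, with 6 and 0 at an unadjusted p under 0.05, and their median log2 fold change was 0.30. All 8 values were positive, against 7665 of 15130 for all genes, but NUMA1 (0.001) and KIF22 (0.027) were close to no change. With the GC and length trend removed both were called higher by edgeR, NUMA1 at 0.135 (adjusted p = 0.0469) and KIF22 at 0.21 (adjusted p = 0.00482). TPX2, the spindle assembly factor that activates Aurora A, rose from 449 ± 7.68 to 597 ± 20.6 CPM (SD, n = 3; log2 fold change 0.41, adjusted p = 0.00179), and AURKA, Aurora A itself, from 204 ± 9.97 to 266 ± 8.30 CPM (0.38, adjusted p = 0.0029). BORA, an activator of PLK1, rose by 0.52 (adjusted p = 0.0254), and without control replicate 1 or 2 stood at 0.52 and 0.49 and missed the threshold (adjusted p = 0.0873 and 0.123). HMMR, the receptor that ties FAM83D to the spindle, had 13.6, 18.8 and 22.5 CPM in control libraries and 18.9, 42.7 and 26.3 CPM with overexpression. Its groups overlapped and overexpression replicate 2 stood above the rest, and the log2 fold change of 0.68 had a 95% interval from 0.10 to 1.26 and was not called (adjusted p = 0.0864), but was called without overexpression replicate 1 (0.91, adjusted p = 0.00426). DYNLL1, a dynein light chain that binds FAM83D, was at 368 ± 6.41 and 419 ± 36.5 CPM (0.19, adjusted p = 0.0747), and passed without overexpression replicate 2 (0.26, adjusted p = 0.0145). The list held 2 called genes without control replicate 1 or control replicate 2, and 7 with the GC and length trend removed, all of them higher.

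Components of EGFR, RAS and PI3K signalling, in which FAM83A and FAM83B act, changed in both directions. Of the 19 tested 3 were higher and 4 lower, and the median log2 fold change was 0.025. EGFR had 112, 110 and 125 CPM in control libraries and 106, 146 and 132 CPM with overexpression, values that overlapped (0.14, adjusted p = 0.34), and it was called higher only when overexpression replicate 1 was left out among the single libraries (0.26, adjusted p = 0.0139). ERBB3, a receptor that signals through PI3K, fell from 16.3 ± 1.01 to 10.1 ± 0.301 CPM (SD, n = 3; log2 fold change -0.70, adjusted p = 0.00142), and stood at -0.68 with the GC and length trend removed. NRAS rose by 0.32 (adjusted p = 0.0113) and MAPK3, the kinase ERK1, fell by 0.31 (adjusted p = 0.0311), and neither was called with the trend removed, at 0.097 and -0.072. The count of 7 was 1 without control replicate 1, control replicate 2 or overexpression replicate 3, 3 without overexpression replicate 2, 13 without overexpression replicate 1, and 4 with the trend removed.

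Genes that ERK signalling is known to induce changed in both directions. Of the 16 tested 7 were lower and 2 higher, with a median log2 fold change of -0.20. ETV4, an ETS transcription factor, fell from 28.6 ± 2.64 to 16.2 ± 1.40 CPM (SD, n = 3; -0.83, adjusted p = 0.00111), close in size to FAM83A. IER3, an early response gene, fell from 52.2 ± 2.41 to 33.4 ± 4.54 CPM (-0.64, adjusted p = 0.00261). EPHA4, an ephrin receptor, rose from 1.81 ± 0.226 to 3.05 ± 0.485 CPM (0.76, adjusted p = 0.0158), and without control replicate 1 or 2 stood at 0.69 and 0.86 and missed the threshold (adjusted p = 0.0738 and 0.0542). The count of 9 was 3 without control replicate 1 or control replicate 2 and 4 without overexpression replicate 3, and with the GC and length trend removed 4 genes were higher and 8 lower.

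In the BMP pathway, in which FAM83G binds SMAD1, 5 of the 11 genes tested were higher and 0 lower by edgeR (6 and 0 by DESeq2 and limma-voom, 7 and 0 at an unadjusted p under 0.05), with a median log2 fold change of 0.29. SMAD1 itself had 19.6, 19.0 and 19.7 CPM in control libraries and 20.5, 21.97 and 21.0 CPM with overexpression. Its groups did not overlap, as 19.7% of tested genes were higher without overlap. The log2 fold change of 0.12 was not called (95% interval -0.045 to 0.29, adjusted p = 0.253, edgeR). With the GC and length trend removed SMAD1 stood at 0.02 (adjusted p = 0.843, edgeR). ID2, a target gene of BMP signalling, rose from 27.4 ± 1.20 to 43.6 ± 1.19 CPM (SD, n = 3; 0.67, adjusted p = 0.000573), and SMAD6, an inhibitor that the pathway induces, from 58.3 ± 2.21 to 83.1 ± 5.94 CPM (0.51, adjusted p = 0.00169). SMAD9 rose by 0.68 (adjusted p = 0.0128), and without control replicate 1 stood at 0.54 and missed the threshold (adjusted p = 0.0553). The count of 5 was 3 without control replicate 1 or control replicate 2 and 8 without overexpression replicate 1, and 6 with the GC and length trend removed, where the median was 0.16.

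In the canonical Wnt pathway, to which FAM83G also belongs, 1 of the 17 genes tested was higher and 2 were lower, a share of 17.6% and a median of -0.014. DKK1, a secreted Wnt inhibitor, rose from 222 ± 6.50 to 314 ± 3.43 CPM (SD, n = 3; 0.50, adjusted p = 0.000599). TCF7, a transcription factor of the pathway, fell by 0.48 (adjusted p = 0.0363) and the co-receptor LRP5 fell by 0.32 (adjusted p = 0.0102), and neither was called with the GC and length trend removed, at -0.33 and -0.11. The count of 3 was 1 without control replicate 1 or control replicate 2 and 7 without overexpression replicate 1, and with the trend removed 3 genes were higher and 0 lower, a turn of the balance.

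Among keratins and SON, the partners of FAM83H, 3 of the 10 genes tested were lower and 0 higher by edgeR, DESeq2 and limma-voom (3 and 1 at an unadjusted p under 0.05), with a median of -0.14. KRT18, a keratin of simple epithelium, fell from 942 ± 73.8 to 716 ± 61.0 CPM (SD, n = 3; -0.40, adjusted p = 0.0108). Without control replicate 1, control replicate 2 or overexpression replicate 3 it stood at -0.37, -0.35 and -0.39 and missed the threshold (adjusted p = 0.0557, 0.0707 and 0.0519). KRT8, with which it pairs in filaments, had 1817 ± 118 and 1703 ± 105 CPM, and its log2 value of -0.094 turned to 0.12 with the GC and length trend removed. It was called in neither of these fits, but was called higher when the replicate block was added to the correction (adjusted p = 0.0425). KRT6A, a keratin of stressed squamous epithelium, fell from 2.49 ± 0.156 to 1.04 ± 0.168 CPM (-1.26, adjusted p = 0.00232), and KRT17, another keratin of stressed epithelium, fell by 0.32 (adjusted p = 0.031) but was at -0.075 and not called with the trend removed. SON, a splicing factor of nuclear speckles, had 334, 334 and 376 CPM in control libraries and 345, 435 and 414 CPM with overexpression, which overlapped (0.19, adjusted p = 0.131). The count of 3 was 1 without control replicate 1, control replicate 2 or overexpression replicate 3, and with the trend removed 1 gene was higher and 2 were lower.

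**Figure D4:**
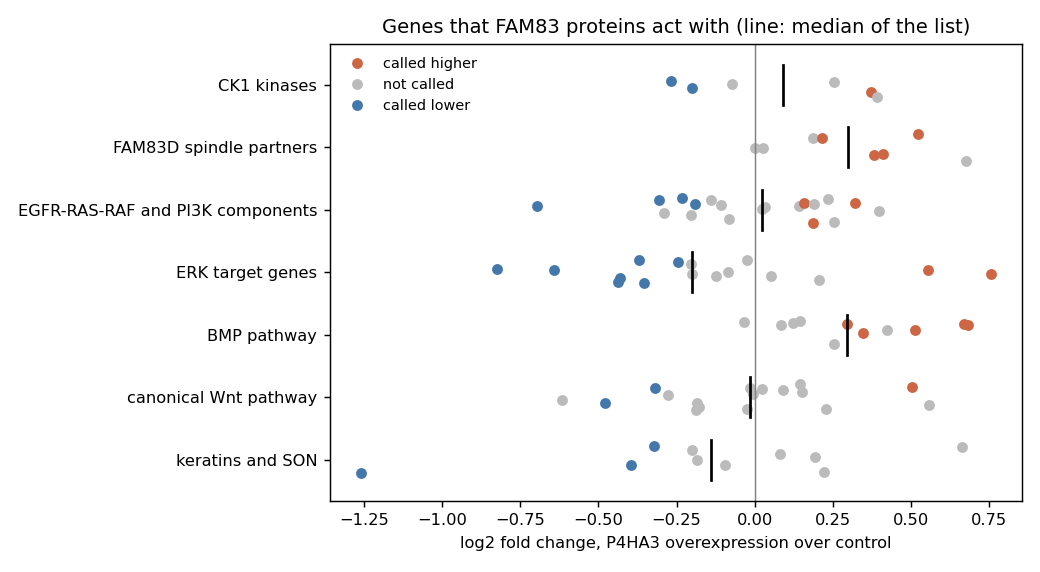
Log2 fold change, P4HA3 overexpression over control, of each tested gene in the 7 lists of genes that FAM83 proteins act with, coloured by whether it was called higher, lower or not called (adjusted p under 0.05, edgeR), with a line at each list's median. All 8 genes of the spindle list lie above 0 with a median of 0.30, NUMA1 (0.001) and KIF22 (0.027) only barely. Of the 16 ERK target genes 7 are called lower and 2 higher, beside 11.4% and 9.36% of all genes tested.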

How the data were processed

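Poly-A RNA of 3 control and 3 P4HA3-overexpressing SiHa PR samples was sequenced as strand-specific paired ends. The deposited values are raw counts per gene, which the authors made with HTSeq on GRCh38 with an Ensembl annotation. Their methods name STAR as the aligner, while the submitters' processing notes name HISAT2. The strand setting of counting, the handling of multi-mapping reads and tool versions are not given in the sources used here. The growth protocol in the labels describes uterine smooth muscle, whereas the cell line label and the study give SiHa.

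The analysis used edgeR 4.0.16 (R 4.3.3). Genes passing filterByExpr (minimum count 10) were normalized by TMM and tested with the two-sided quasi-likelihood test, with Benjamini-Hochberg adjustment over 15130 genes and a threshold of 0.05. The common biological coefficient of variation was 7.66%. Standard errors are the log2 fold change divided by the root of F. Libraries of a group differed by more than counting noise (chi-square per degree of freedom 5.17 to 17.8). Intervals and limits of detection at counts of 0 cover 95%, the latter for counting error only. Lengths, positions and GC content came from GENCODE 44, in which 60463 of 60664 identifiers matched. In the GC and length correction, smooth trends of each library (mgcv 1.9.3) entered as offsets, so a difference between groups along GC content or length is removed too. Alternatives included DESeq2 1.42.0, limma-voom (limma 3.58.1), other normalizations and filters, and each library left out. Scripts were tested on simulated data.

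The members and gene lists were chosen with earlier results of these data known. Named genes were the 8 members, P4HA3, genes overlapping their exons, direct partners (CSNK1A1, CSNK1D, CSNK1E, HMMR, DYNLL1, EGFR, SMAD1, KRT8, KRT18 and SON; another is not reported here), up to 3 further genes per list with the largest change among those called at a mean of at least 1 CPM, and the gene most correlated with each tested member. Neighbouring genes at the ends of a range, CDH1, the cell type markers, ACTG2, NUMA1 and KIF22 were named beside them after their values were seen.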

Additional observations from a re-analysis of the deposited data

How the results depend on the processing

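FAM83A and FAM83D kept their direction and their call under all 20 alternatives, FAM83A with log2 fold changes from -1.03 to -0.72 and FAM83D from 0.34 to 0.40, and from -0.93 to -0.80 and 0.34 to 0.36 with each library left out in turn. The sign turned for FAM83B (-0.012 without control replicate 1, within a range from -0.012 to 0.374 over single libraries left out, -0.065 with the GC and length correction and -0.077 with this correction and the block), FAM83G (0.12 in both corrected fits), FAM83H (0.14 in both), CSNK1D (0.077 in both) and KRT8 (0.12 in both, called higher with the block at an adjusted p of 0.0425). The correction gave 1603 higher and 1202 lower genes, so 57.1% of calls were higher instead of 45.0%.

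Replicate numbers showed no clear pairing of the samples: deviations from the group means of same-numbered libraries correlated at 0.42, -0.12 and 0.01. Control replicate 1 correlated best with its own number, and replicates 2 and 3 of the controls with another number. The deviations also followed GC content, with a rho from -0.54 in control replicate 3 to 0.47 in overexpression replicate 1. These correlations therefore cannot decide whether the samples were paired. The replicate block gave 2138 higher genes and 5 called Wnt genes, with FAM83A (-0.85) and FAM83D (0.35) still called. Together with the correction it gave 2136 higher genes, 8 spindle partners, 5 Wnt genes and 1 CK1 kinase, with FAM83A (-0.72) and FAM83D (0.40) still called.

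A threshold of 0.01 on the adjusted p left 221 higher and 507 lower genes, and the lists held 2 BMP, 1 Wnt, 1 CK1, 1 EGFR-RAS-PI3K, 3 ERK target, 2 spindle and 1 keratin gene. Without the filter 2384 genes were higher and 6 Wnt genes were called. The correction left 1 CK1 kinase, 4 EGFR-RAS-PI3K genes and 7 spindle partners. With each library left out the calls ranged from 163 to 2814 higher and 371 to 2716 lower genes, lowest without control replicate 2 and highest without overexpression replicate 1, and in the lists from 3 to 8 (BMP), 1 to 7 (Wnt), 1 to 5 (CK1), 1 to 13 (EGFR-RAS-PI3K), 3 to 9 (ERK targets), 2 to 5 (spindle) and 1 to 4 (keratins and SON).

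Leaving out the 3 libraries with ACTG2 counts was chosen after seeing the data, and assumes that the 1 remaining overexpression library varies like the controls. It gave 4 called members, FAM83A (-1.03), FAM83D (0.39), FAM83B (0.59, adjusted p = 0.0393) and FAM83H (-0.20, adjusted p = 0.0194), with 3579 higher and 3186 lower genes, 8 BMP, 8 Wnt, 6 CK1, 17 EGFR-RAS-PI3K and 6 keratin genes. The causes of these changes were not tested. Depth limits FAM83E and FAM83F, which had at most 8 counts in a library.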
